A study of Sus scrofa with 14 samples.

Results

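Inflammatory signalling genes were measured in the uterus of 14 pregnant sows of an Iberian x Meishan F2 cross, which joins an Iberian and a Chinese pig breed, as 76 genes chosen by name out of the 6765 genes that an Affymetrix porcine array names with a single symbol. The genes are those whose symbol begins with IL and a digit, CCL, CCR, CXCL, CXCR, TLR or TNF, together with the calgranulins S100A8, S100A9 and S100A12. The chemokines CCL19, CCL21, CXCL12 and CXCL14 were not among them. Each gene was read from its probe set with the highest mean over the 14 arrays, so that 76 of 92 probe sets were used. The rule itself uses names and mean brightness over all arrays, and no difference between groups. It was, however, written with earlier results of these data known. S100A9 was named as the marker with the rule, so its call is not an independent test.

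The sows were slaughtered between days 30 and 32 of the fifth gestation, and the uterus was frozen in liquid nitrogen. The labels class 5 sows as high prolificacy and 9 as low prolificacy, with 1 array per sow. They name no treatment, give no measure of litter size and do not say which layer of the uterine wall was sampled. The study asked which genes differ in expression between uteri of the 2 classes. All levels are on the log2 scale, and each difference is the high mean minus the low mean.

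Interleukins and chemokines are secreted proteins through which immune, epithelial and stromal cells signal, and each acts through a receptor on the receiving cell. Toll-like receptors recognise microbial molecules and lead, through NF-kappaB, to the transcription of many of these cytokines, while the tumour necrosis factor family controls inflammation and cell survival. Calgranulins are small calcium-binding proteins abundant in neutrophils and also made by epithelia under inflammation. In early pregnancy the uterus of the pig receives cytokines from the conceptus, and recruits leukocytes while it tolerates the conceptus.

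Of the 76 genes, 4 rose and 1 fell in high prolificacy in limma, at an adjusted p under 0.05 over all 23999 probe sets tested. S100A9 rose 5.52-fold, the chemokine CXCL16 rose 5.02-fold, the receptor chain IL10RB rose 2.15-fold and the cytokine IL34 rose 1.54-fold, while the cytokine IL17B fell 3.26-fold. The other 71 genes were not called, among them the classical inflammatory cytokines IL1A, IL1B, IL6, TNF and CXCL8. These 5 calls are 6.58% of the genes. Over all probe sets 7.85% were called, 3.5% higher and 4.35% lower, and over the brightest probe set of each gene 10.8% were called, 5.34% higher and 5.42% lower, so the share among these genes was near the background or under it. At an unadjusted p under 0.05 there were 20 of the 76 genes, or 26.3%, beside 21.1% of all probe sets and 26.8% of the brightest probe sets.

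The count of 5 turned on single arrays. It was 10 without high 1, 3 without high 2, 3 without high 3, 3 without high 5 and 8 without low 3. Over all probe sets the count moved as well, from 1885 with all arrays to 2650 without high 1 and 944 without high 3. CXCL16, IL17B and S100A9 were called in each of the 14 fits that left out 1 array. IL10RB lost the call without high 2, high 3 or high 5 (adjusted p up to 0.077), and IL34 without high 2, high 3, high 5 or low 9 (adjusted p up to 0.10).

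The groups also differed in the markers of the tissue layers. Genes of smooth muscle and of uterine epithelium lay above the array median in the mean, 15 of 15 on the array in each list, where 74% of all genes did. On the 5 high arrays, PDLIM3 was above it on 1 and MYLK, SYNM and KCNMB1 on 2, and the other smooth muscle genes on all 5. The marker lists were written with earlier results of these data known, so the counts are a description. Which layers each sample held was not tested. All 15 smooth muscle genes fell in high prolificacy, and the list mean per array (the average over its genes after each was centred at 0) lay between -3.56 and -0.037 in high and between 0.72 and 1.92 in low. Of the 15 epithelium genes 7 rose and 0 fell, and the list mean lay between 0.70 and 1.63 in high and between -2.63 and 0.40 in low. Low 7 and low 9 had the lowest epithelium means, at -2.63 and -2.28. In whole tissue, fewer cells of a type and less RNA per cell cannot be told apart. With the epithelium mean as a covariate 0 of the 76 genes were called in limma (4 at an unadjusted p under 0.05), and with both means as covariates 0 were called (1 at an unadjusted p under 0.05). Over all 23999 probe sets these fits called 2 and 0 (1334 and 317 at an unadjusted p under 0.05), so the loss of calls was not particular to these genes. The epithelium mean alone accounted for 52.8% of the variance of the group variable and both means for 83.2%. With the epithelium mean the SE of S100A9 was 0.49 and that of CXCL16 0.34, beside 0.46 and 0.44 without it, and with both means they were 0.84 and 0.59. Stromal and endothelial genes differed in part as well. Of 11 stromal fibroblast genes 1 rose and 4 fell in limma, and their list mean ran from -0.84 to 0.15 in high and from -0.37 to 0.68 in low. Of 10 blood endothelium genes 1 rose and 1 fell, and their list mean ran from -0.84 to 0.39 and from -0.34 to 0.66.

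Leukocyte markers were set beside these. None of 9 macrophage and dendritic cell genes and none of 13 T and NK cell genes on the array was called in limma (1 and 2 at an unadjusted p under 0.05). The macrophage list mean ran from -0.65 to 0.92 in high and from -0.77 to 0.59 in low, and the T and NK list mean from -0.056 to 0.34 and from -0.40 to 0.26. Of 4 B and plasma cell genes 0 were called (2 at an unadjusted p under 0.05), and their list mean ran from -0.14 to 1.29 in high and from -0.90 to 0.24 in low. The largest difference among them was that of BLNK, an adaptor of the B cell receptor, at 1.38 (limma adjusted p = 0.087). The 2 mast cell genes went opposite ways: KIT, the stem cell factor receptor, rose by 0.47 (limma adjusted p = 0.031), and MS4A2, a chain of the IgE receptor, differed by -0.31 (0.23), with 4 of 5 high arrays below all low arrays.

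**Figure D1:**
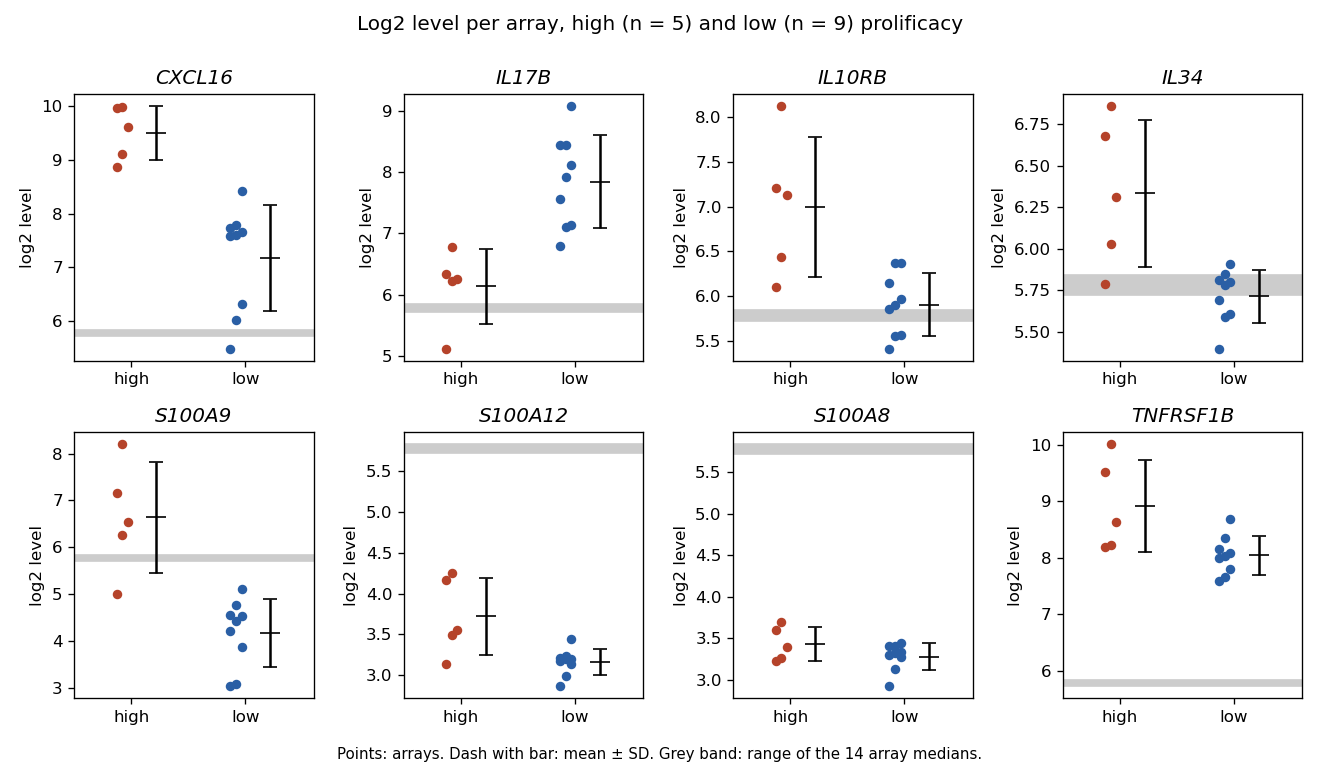
Log2 level on each array (points) for 8 genes in high (n = 5, red) and low (n = 9, blue) prolificacy, with the mean ± SD beside them and the range of the 14 array medians as a grey band. CXCL16 and IL17B show no overlap between groups, high 4 and low 1 cross for S100A9, and S100A8 and S100A12 lie below the grey band on all 14 arrays.

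Among the secreted interleukins, 1 of 18 rose, 1 fell and 16 were not called, with a median difference of 0.12 beside 0.039 over all probe sets. IL17B (Entrez gene 102162772), a member of the interleukin-17 family that signals through IL17RB, was at 6.22, 6.33, 6.26, 5.12 and 6.77 in high 1 to high 5 and between 6.80 and 9.08, with a median of 7.92, in low prolificacy. All 5 high arrays lay below all 9 low arrays, although high 5 and low 8 were only narrowly apart. The difference was -1.71 ± 0.37 (SE, limma adjusted p = 0.011). IL17B has 3 probe sets, and the other 2, both dimmer, differed by -1.48 (limma adjusted p = 0.068) and -0.063 (0.88), so its probe sets disagree. Groups that do not overlap, in either direction, were found for 3 of the 76 genes, or 3.95%, beside 2.64% of all probe sets and 3.78% of the brightest probe sets.

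IL34 (Entrez gene 100737468), a ligand of the macrophage growth factor receptor CSF1R, was at 5.79, 6.31, 6.68, 6.03 and 6.86 in high 1 to high 5 and between 5.40 and 5.91, with a median of 5.78, in low prolificacy. The low arrays were close together, and only high 1 reached into their range. The difference was 0.62 ± 0.16 (SE, limma adjusted p = 0.028). IL34 lay above the array median on 4 of 5 high and 2 of 9 low arrays. The 9 macrophage and dendritic cell genes, of which 0 were called in limma, ranged from -0.57 for MRC1 to 0.51 for CD86 (adjusted p = 0.39 and 0.059), with a median of 0.072.

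IL18, a cytokine that induces interferon gamma and is released after cleavage by caspase-1, was at 6.39, 5.30, 5.12, 6.58 and 4.78 in the high arrays and between 5.70 and 7.07, with a median of 6.51, in low prolificacy. High 2, high 3 and high 5 lay below every low array, while high 1 and high 4 lay among them. The difference of -0.92 ± 0.30 (SE) was not called (limma adjusted p = 0.074), but it was called without high 1, without high 4 or without low 3. Over the 14 fits that left out 1 array its limma adjusted p ran from 0.024 to 0.21. IL18BP, the secreted protein that binds and neutralises IL-18, ran the other way on the same arrays, at 7.44, 8.24 and 7.78 in high 2, high 3 and high 5 and between 6.38 and 6.98 in low prolificacy. Its difference of 0.66 ± 0.23 (SE) was not called (limma adjusted p = 0.10), and it was called without high 1. These same 3 high arrays had the highest epithelium means, 1.51, 1.63 and 1.39, and the lowest smooth muscle means, -2.72, -3.56 and -2.65. The difference of IL18 was -0.36 ± 0.39 (SE) with the epithelium mean as a covariate and 0.31 ± 0.64 (SE) with both tissue means (limma adjusted p = 1.0 for each). With the trophoblast and fetal membranes mean it was -1.09 ± 0.25 (SE) and was called (limma adjusted p = 0.013).

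IL6, a cytokine of the acute phase response, averaged 5.74 ± 1.34 (SD, n = 5) on the high arrays against 4.74 ± 1.61 (SD, n = 9) on the low arrays. It ranged from 4.12 to 7.55 in high and from 3.17 to 7.78 in low, with the highest values in low 5 and high 4, so that the spread within each group exceeded the difference of 1.00 (limma adjusted p = 0.53). The 95% interval of that difference, from -0.66 to 2.65, is the widest of the named interleukins and includes a several-fold change in favour of high prolificacy. The difference of IL6 was 0.54 without high 4, 0.37 with array weights and 0.41 with the trophoblast and fetal membranes mean as a covariate (limma adjusted p = 0.78, 0.83 and 0.69). That list mean ran from -0.96 to 3.26 in high, highest in high 4, and from -1.12 to 0.88 in low, highest in low 5. PAG6, a trophoblast gene of the list, ran from 3.86 to 11.43 in high and from 3.60 to 10.89 in low. A share of conceptus transcript in IL6 was not tested. IL1B, which the pig carries beside a closely related copy expressed by the conceptus, was at 5.70 ± 0.22 (SD, n = 5) and 5.59 ± 0.35 (SD, n = 9), with an interval from -0.26 to 0.48. Whether its probe sets separate the copies was not tested. IL1A (0.13), IL10 (0.16) and IL15 (0.049) differed by less than their SE of 0.21, 0.13 and 0.17 or by little more, with limma adjusted p of 0.81, 0.56 and 0.92. IL21, a cytokine of helper T cells, was noticed after its values were seen: all 5 high arrays, at 4.06 to 4.28, lay above all 9 low arrays, at 3.60 to 4.05, yet the difference of 0.24 was not called (limma adjusted p = 0.16), and it stayed below the array median on all 14 arrays.

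Among interleukin receptors and the binding protein IL18BP, 1 of 13 rose, 0 fell and 11 had a difference above 0 (10 after cyclic loess and 12 with array medians subtracted), with a median of 0.23. IL10RB (Entrez gene 396657), the chain shared by the receptors for interleukin-10, interleukin-22 and interferon lambda, was at 6.44, 7.21, 7.13, 6.10 and 8.13 in high 1 to high 5 and between 5.41 and 6.37, with a median of 5.90, in low prolificacy. Only high 4 lay within the low range, and high 5 stood highest. The difference was 1.10 ± 0.28 (SE, limma adjusted p = 0.026). IL27RA, the receptor chain for interleukin-27, differed by 0.64 and was called without high 1 or without low 3, IL1R1, the signalling receptor of interleukin-1, by 0.57 and was called without low 1, and IL4R, the receptor chain for interleukins 4 and 13, by 0.70. Their limma adjusted p with all arrays were 0.10, 0.15 and 0.23. The receptor chain IL11RA, by contrast, was at 8.65 ± 0.58 (SD, n = 5) and 8.67 ± 0.65 (SD, n = 9), with an interval for the difference from -0.72 to 0.68.

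Of 5 CXC chemokines 1 rose. CXCL16 (Entrez gene 396735), which is made as a membrane-bound chemokine and also takes up oxidised lipoprotein, was at 9.11, 9.98, 9.97, 8.88 and 9.61 in high 1 to high 5 and between 5.49 and 8.43, with a median of 7.60, in low prolificacy. Every high array lay above every low array, and the lowest low arrays were low 9, low 6 and low 7. The difference was 2.33 ± 0.44 (SE, limma adjusted p = 0.0053). Its receptor CXCR6, carried by T and NK cells, differed by 0.34 (limma adjusted p = 0.36, not called) and stayed below the array median on all 14 arrays. Among the neutrophil-attracting chemokines, CXCL8 was at 2.67 ± 0.30 (SD, n = 5) and 2.46 ± 0.18 (SD, n = 9), and CXCL2 differed by -0.85 (limma adjusted p = 0.21). CXCL9, which interferon gamma induces, differed by 0.29 (limma adjusted p = 0.44), and by 0.068 without high 4, its highest high array.

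None of the 10 CC chemokines was called in limma, and 0 had an unadjusted p under 0.05. Of these 5 lay above and 5 below 0, with a median of 0.0081 that was -0.020 after cyclic loess. CCL2, which attracts monocytes, ranged from 4.45 in high 2 to 7.27 in high 4, wider than the 5.56 to 7.20 of the low arrays, and differed by -0.48 (interval -1.31 to 0.34). High 4 was also the array with the highest trophoblast and fetal membranes list mean, at 3.26. The difference of CCL2 was -0.90 without high 4 (limma adjusted p = 0.091), -0.20 without high 2 (0.84) and -0.77 with the trophoblast mean as a covariate (0.066). CCL24, an attractant of eosinophils, had the smallest p of the family and differed by -0.55 (limma adjusted p = 0.31), and CCL5, an attractant of T cells, by 0.35 (0.46). CCL3L1 and CCL4 belong to clusters of similar copies, and their probe sets may not separate these.

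None of the 8 chemokine receptors was called in limma (1 at an unadjusted p under 0.05). All 8 differences were above 0, from 0.032 to 0.79, and 6 of 8 were with array weights. CCR2, the receptor of CCL2, had the smallest p among the CC receptors, with a difference of 0.26 (limma adjusted p = 0.17). CXCR4, the receptor of CXCL12, was the member of this family above the array median in the mean. It spread from 6.25 to 8.15 in high and from 4.38 to 7.47 in low prolificacy, and its difference of 0.79 ± 0.55 (SE) was not called (limma adjusted p = 0.47).

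None of the 6 Toll-like receptors was called in limma (1 at an unadjusted p under 0.05). TLR4, the receptor of bacterial lipopolysaccharide, was above the array median on all 14 arrays, at 8.22, 8.39, 8.50, 7.51 and 7.83 in high and between 6.06 and 8.80, with a median of 7.96, in low prolificacy. The high arrays lay inside the range of the low arrays, whose lowest values were those of low 9 and low 7. The difference was 0.41, with an interval from -0.41 to 1.22, and the other 4 TLR4 probe sets differed by 0.15 to 0.40, none of them called. TLR6 differed by 0.56 (limma adjusted p = 0.18), and TLR2, which pairs with TLR1 or TLR6 to sense bacterial lipoproteins, by 0.10 (0.91). TLR1 and TLR6 are closely similar genes whose probe sets may share transcripts. All 6 differences were above 0, and 3 of 6 were with array weights. Of the 6 genes, 4 passed the array median on none of the 14 arrays.

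In the tumour necrosis factor family 0 of 4 ligands, 0 of 5 receptors and 0 of 4 TNFAIP genes were called in limma (1, 3 and 1 at an unadjusted p under 0.05). TNF itself was at 5.29 ± 0.33 (SD, n = 5) and 4.96 ± 0.20 (SD, n = 9), a difference of 0.33 (limma adjusted p = 0.20), and below the array median on all 14 arrays. TNFRSF1B, the TNF receptor found mainly on leukocytes and endothelium, was at 8.19, 9.51, 8.63, 8.22 and 10.02 in high 1 to high 5 and between 7.59 and 8.69, with a median of 8.03, in low prolificacy. High 2 and high 5 stood above all low arrays, and the other 3 lay among the upper low values. The difference of 0.87 ± 0.29 (SE) was not called (limma adjusted p = 0.077), and it was called without high 1, without high 4 or without low 3. Over the 14 fits that left out 1 array its limma adjusted p ran from 0.033 to 0.21. TNFRSF1A, the receptor carried by most cells, was at 8.60 ± 0.39 (SD, n = 5) and 8.61 ± 0.44 (SD, n = 9). TNFRSF12A, the receptor of the cytokine TWEAK, had 2 probe sets that differed by -0.54 and -0.82 (limma adjusted p = 0.12 and 0.088). TNFAIP6, a hyaluronan-binding protein induced by TNF, differed by -0.31 (0.11) at a level below the array median on all arrays.

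**Figure D2:**
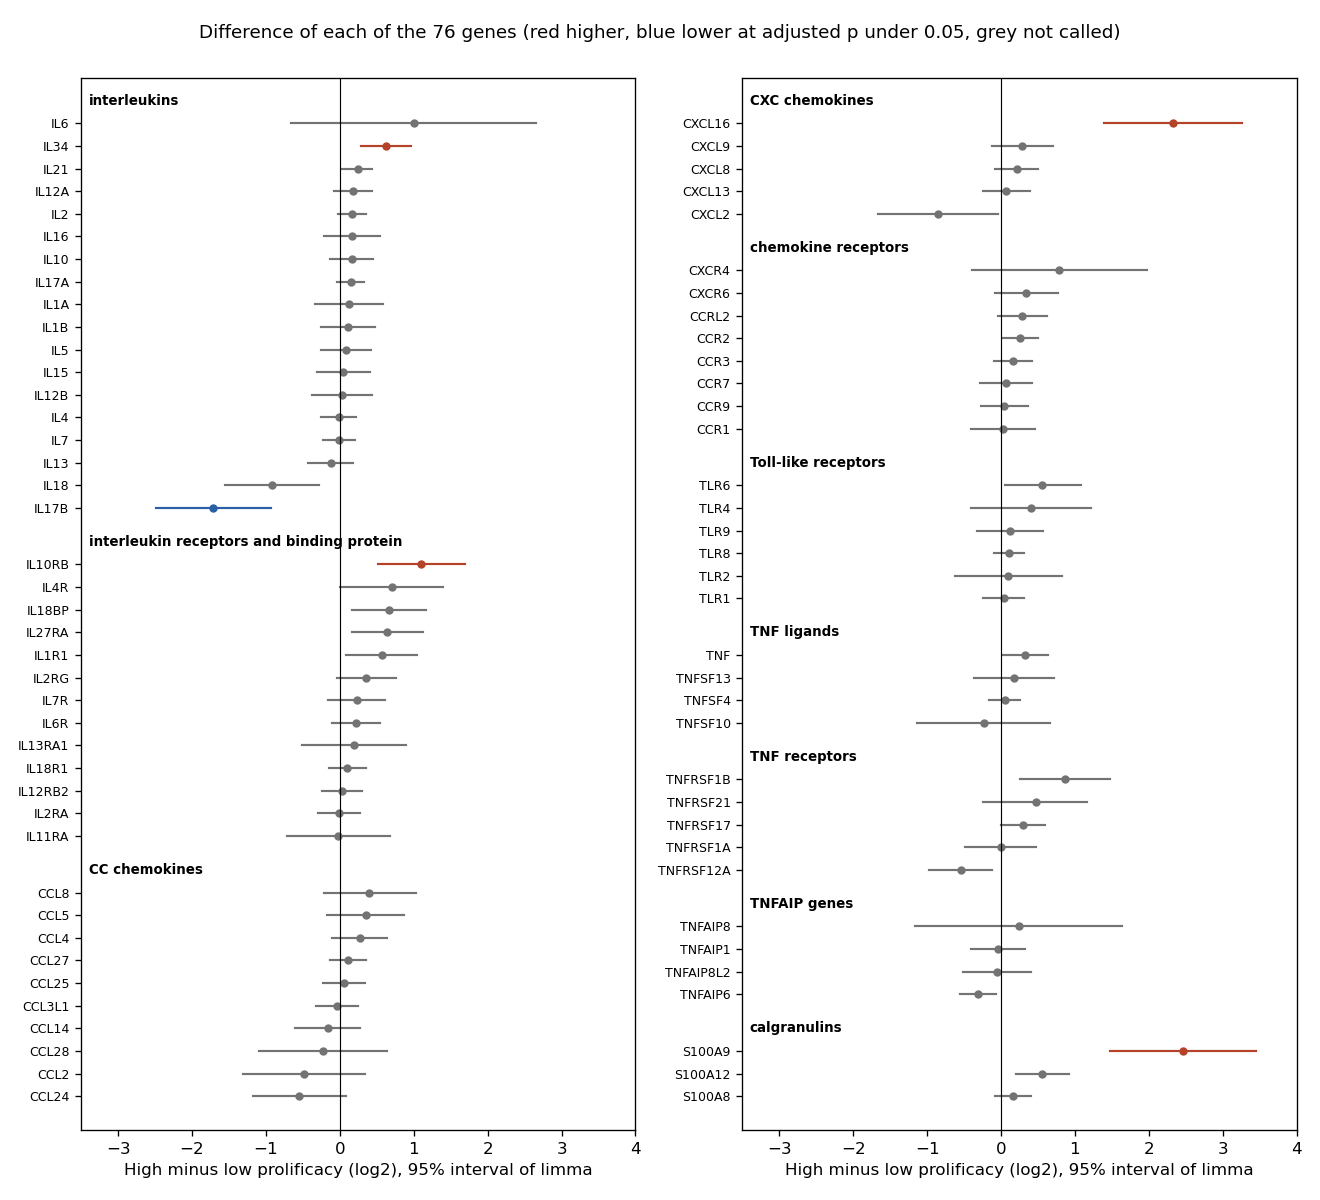
High minus low prolificacy on the log2 scale for each of the 76 genes (points), with limma's 95% interval (lines), by family. The 4 genes in red (IL34, IL10RB, CXCL16, S100A9) rose and the 1 in blue (IL17B) fell at an adjusted p under 0.05, and the intervals of IL6, CXCR4 and TNFAIP8 are wide.

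Of the 3 calgranulins 1 rose. S100A9 (Entrez gene 100127489) was at 6.55, 8.21, 6.27, 5.01 and 7.17 in high 1 to high 5 and between 3.04 and 5.11, with a median of 4.43, in low prolificacy. High 4 fell just under low 1, and all other high arrays lay above all low arrays. The difference was 2.46 ± 0.46 (SE, limma adjusted p = 0.0051), and S100A9 lay above the array median on 4 of 5 high and 0 of 9 low arrays. S100A8, its partner in the heterodimer calprotectin, was at 3.23, 3.60, 3.39, 3.26 and 3.69 in high and between 2.92 and 3.44 in low prolificacy, and differed by 0.16 (interval -0.087 to 0.40, limma adjusted p = 0.49). S100A12, a ligand of the receptor RAGE, was at 3.13, 4.25, 4.17, 3.49 and 3.55 in high and between 2.86 and 3.44 in low prolificacy. Its difference of 0.56 ± 0.17 (SE) was just outside the threshold (limma adjusted p = 0.057), and it was called without high 1 (adjusted p = 0.010). With 1 other array left out its limma adjusted p reached up to 0.18. High 2 was the highest array for both S100A9 and S100A12, and high 5, the next for S100A9, was below high 3 for S100A12 and above all low arrays. S100A8 and S100A12 were below the array median on all 14 arrays, and without detection calls it is not known whether they lay above background.

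S100A9 is used as a marker of neutrophils, so the other neutrophil genes were set beside it. Of 17 listed, 8 were on the array, and 5 of these are not calgranulins: ELANE, LTF, MMP9, ITGAM and FCGR3A. None of the 5 was called in limma, and 0 had an unadjusted p under 0.05. Their differences were 0.054, 0.23, -0.19, 0.13 and 0.024, and their mean per array ran from -0.21 to 0.39 in high and from -0.31 to 0.31 in low prolificacy. Of these 5, FCGR3A lay above the array median in the mean. ELANE, LTF, MMP9 and ITGAM were below it on all 14 arrays. Without detection calls it is not known whether such dim probe sets could show a change in neutrophils. Among the 8 neutrophil genes on the array, S100A9 was the one that was called, and S100A12 was just outside the threshold (limma adjusted p = 0.057). A share of neutrophil transcript in S100A9 was not tested.

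The 5 called genes were also set against the tissue markers inside the low prolificacy group, where all 9 arrays share a class. There were 10 such relations, each tested with an exact permutation test over all orders of the 9 arrays and adjusted over the 10. S100A9 followed the epithelium mean (Pearson r = 0.93, exact permutation p = 0.0016, adjusted 0.016; Spearman rho = 0.68, exact p = 0.050, adjusted 0.12). Without low 7 and low 9, the 2 arrays farthest from the median, r was 0.63 on 7 arrays (exact permutation p = 0.12). The relation was then weaker, of the same sign, and tested with less power. CXCL16 followed it as well (r = 0.86, exact permutation p = 0.0052, adjusted 0.026; rho = 0.67, exact p = 0.059, adjusted 0.12), and r was 0.88 without low 7 and low 9 (exact permutation p = 0.022). IL10RB had r = 0.76 (exact permutation p = 0.018, adjusted 0.035; rho = 0.78, exact p = 0.017, adjusted 0.12), which was 0.45 without those arrays (exact permutation p = 0.31).

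IL34 and IL17B did not follow the epithelium mean by this test. IL34 had r = 0.29 (exact permutation p = 0.45, adjusted 0.50; rho = 0.57, exact p = 0.12, adjusted 0.15) and IL17B r = -0.47 (exact permutation p = 0.21, adjusted 0.27; rho = -0.12, exact p = 0.78, adjusted 0.78). IL17B moved with the smooth muscle mean instead (r = 0.78, exact permutation p = 0.015, adjusted 0.035; rho = 0.67, exact p = 0.059, adjusted 0.12), and r was 0.57 without low 5 and low 7 (exact permutation p = 0.18). CXCL16 ran against the smooth muscle mean (r = -0.80, exact permutation p = 0.0095, adjusted 0.032; rho = -0.75, exact p = 0.025, adjusted 0.12), with r of -0.74 without low 5 and low 7 (exact permutation p = 0.067). S100A9, IL10RB and IL34 had r of -0.70, -0.64 and -0.16 with it (exact permutation adjusted p = 0.061, 0.095 and 0.69; rho -0.63, -0.60 and -0.42, adjusted p = 0.13, 0.14 and 0.30). By rank, 0 of the 10 relations passed after adjustment.

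**Figure D3:**
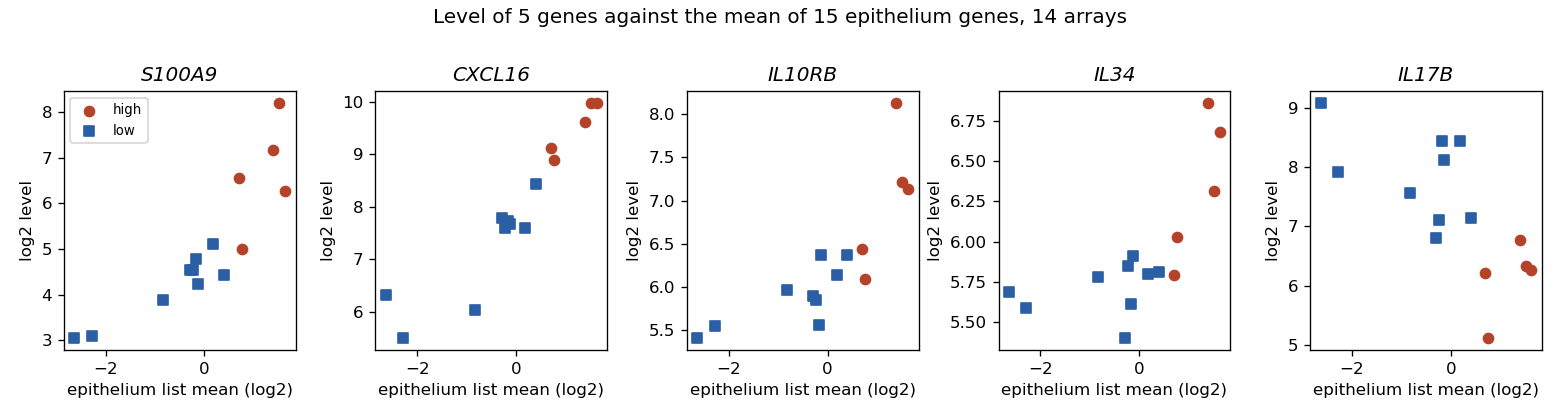
Log2 level of the 5 called genes (vertical axes) against the mean of 15 epithelium genes on the same array (horizontal axis, log2, centred per gene), for 5 high (red circles) and 9 low (blue squares) arrays. Low 7 and low 9, at the far left, also have the lowest S100A9 and low CXCL16, and the high arrays all lie to the right of the low arrays.

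The differences of the 5 genes were smaller when the epithelium mean stood in the fit. That of S100A9 was then 1.17, of CXCL16 0.82, of IL10RB 0.49, of IL34 0.43 and of IL17B -1.26, with unadjusted limma p of 0.033, 0.032, 0.19, 0.086 and 0.031 and adjusted p from 0.78 to 1.0. With both tissue means in the fit S100A9 differed by 1.75 ± 0.84 (SE), more than with the epithelium mean alone, while CXCL16 differed by 0.64, IL10RB by 0.087, IL17B by -0.95 and IL34 by -0.18 (limma adjusted p = 1.0 for each). Over all probe sets 2 were called with the epithelium mean and 0 with both means. Leaving out low 7 and low 9, a choice made after seeing the data, left 3 genes called, CXCL16 (1.96), IL17B (-1.52) and S100A9 (2.14), while IL10RB (0.98) and IL34 (0.60) each had a limma adjusted p of 0.085.

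Which of the genes lay above the median of their array was asked next. A probe set's brightness depends on its probes as well as on its transcript, so this separates bright from dim probe sets and gives no order of abundance between genes. In the mean over 14 arrays, 23 of 76 genes (30.3%) lay above the array median, where 5005 of the 6765 brightest probe sets per gene (74%) did. On all 14 arrays 10 genes were above it, on some arrays 26 and on none 40. The 10 were the receptors IL1R1, IL4R, IL11RA, TLR4, TNFRSF1A, TNFRSF1B, TNFRSF12A and TNFRSF21, the binding protein IL18BP and TNFAIP1, and none of them is an interleukin or a chemokine.

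By family, 7 of 13 interleukin receptors and binding protein, 4 of 5 TNF receptors and 3 of 4 TNFAIP genes were above the array median in the mean, against 3 of 18 interleukins, 3 of 10 CC chemokines, 1 of 5 CXC chemokines, 1 of 8 chemokine receptors, 1 of 6 Toll-like receptors, 0 of 4 TNF ligands and 0 of 3 calgranulins. The interleukins were IL17B, IL18 and IL34, the CC chemokines CCL2, CCL5 and CCL14, the CXC chemokine CXCL16, the chemokine receptor CXCR4 and the Toll-like receptor TLR4. IL1B and IL15 passed the median on 5 of 14 arrays each and IL6 and S100A9 on 4. The T cell cytokines IL2, IL4, IL5, IL13, IL17A and IL21 passed it on 0.

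Per array, between 21 and 27 of the 76 genes were above the median in high and between 17 and 25 in low prolificacy. The lowest counts, 17 and 18, were those of low 7 and low 9, the arrays with the lowest epithelium means, and the highest was that of high 5.

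**Figure D4:**
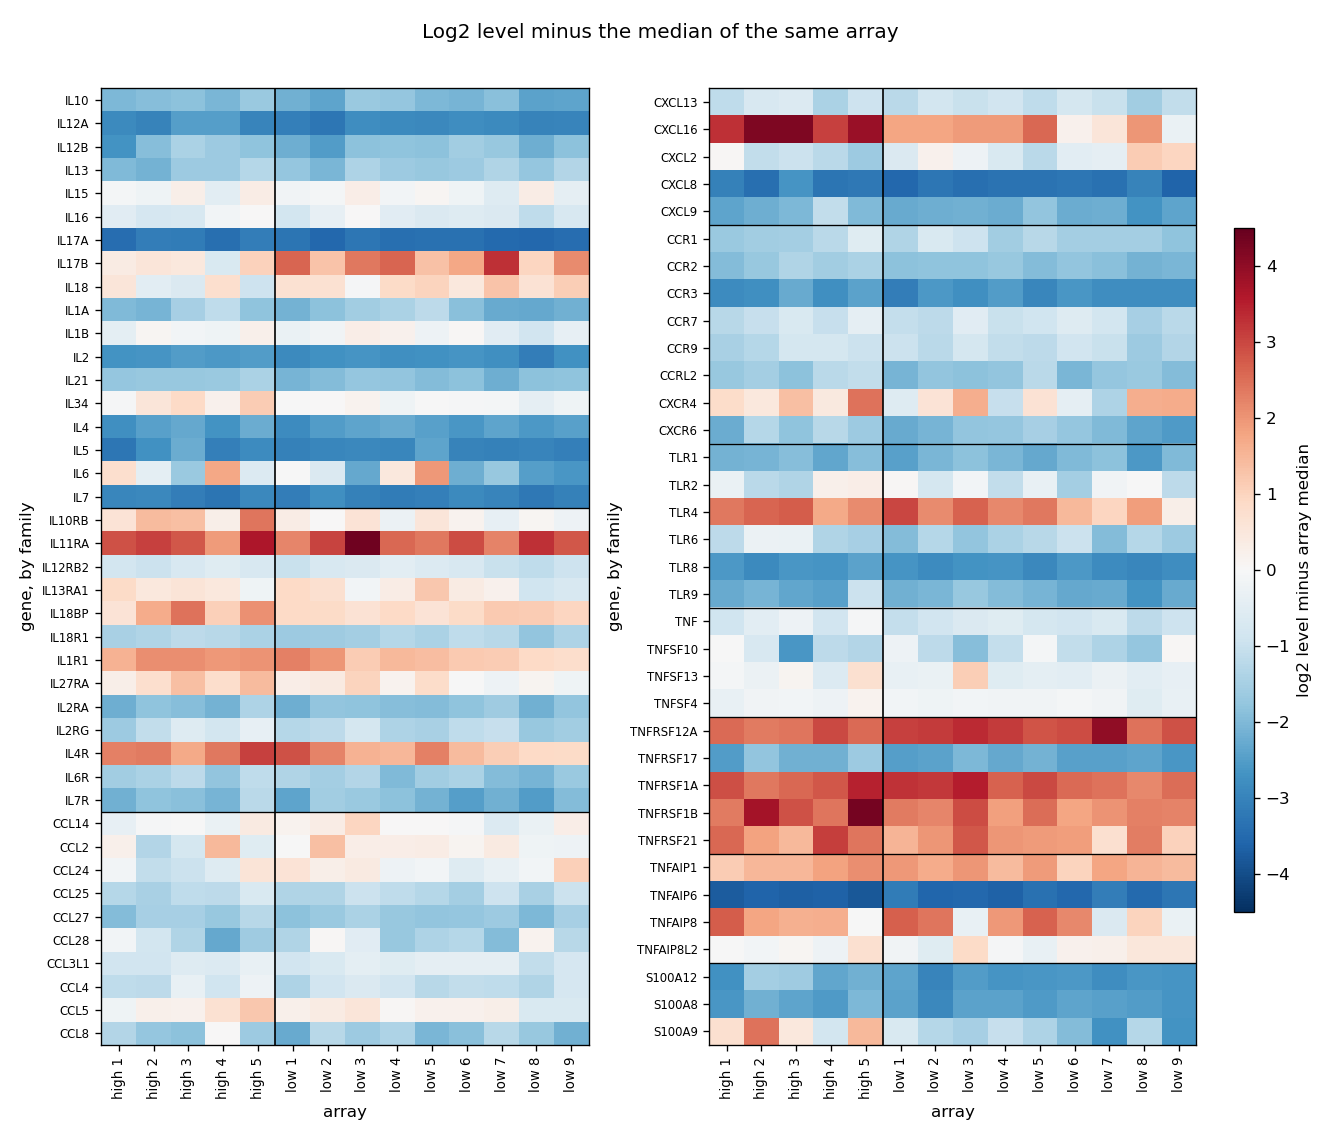
Log2 level minus the median of the same array (colour scale) for the 76 genes (rows, by family) on 5 high and 9 low arrays (columns, parted by the vertical line). Red cells, above the median, gather in the interleukin receptors and TNF receptors, while most interleukins and the receptors CCR1 to CCR9 are blue on every array.

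Over the whole set, the differences of 57 genes (75%) were above 0, beside 60.1% of the brightest probe set of each gene, and 60 were so with array medians subtracted, 56 after cyclic loess and 50 with array weights. The median difference of the set was 0.15, against 0.073 over the brightest probe sets and 0.039 over all probe sets. Of the 53 genes at or below the array median in the mean, 43 had a difference above 0 (median 0.12). Of the 23 genes above it, 14 did (median 0.35). Among all genes 74% lay above the array median, against 30.3% of this set, so the 60.1% is not matched for brightness. Whether the excess is particular to these genes was not tested. Of the 71 genes that were not called, IL6 had the largest difference with all arrays, at 1.00.

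The genes that carry these signals inside the cell were taken from 4 written lists, with 36 on the array. Of these 0 rose and 2 fell in limma (8 at an unadjusted p under 0.05). Both are kinases that cytokine receptors use to start signalling: JAK1 was at 9.46 ± 0.19 (SD, n = 5) on the high arrays against 9.95 ± 0.18 (SD, n = 9) on the low arrays, with no overlap between groups, and JAK2 at 6.76 ± 0.38 (SD, n = 5) and 7.74 ± 0.57 (SD, n = 9). The differences were -0.49 and -0.98 (limma adjusted p = 0.017 and 0.036). Each has another, dimmer probe set that was not called, which differed by 0.0088 for JAK1 and by -0.98 for JAK2 (limma adjusted p = 0.98 and 0.19). Over the brightest probe set of each gene 10.8% were called, 5.42% lower, and 26.8% had an unadjusted p under 0.05. The shares among the 36 genes were not above these. With both tissue means as covariates 0 of all 23999 probe sets were called in limma, so neither kinase was. Whether the 2 calls held with 1 array left out was not tested.

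By list, 0 of 12 adaptors and kinases of Toll and interleukin-1 receptors, 0 of 6 NF-kappaB genes, 2 of 15 JAK, STAT and SOCS genes and 0 of 3 inflammasome genes were called in limma (2, 0, 5 and 1 at an unadjusted p under 0.05). The median differences of these lists were 0.12, 0.24, 0.13 and 0.021. MYD88, the adaptor shared by most Toll-like receptors, differed by 0.37 (limma adjusted p = 0.42), and NFKBIA, the inhibitor that NF-kappaB itself induces, by 0.60 (0.36). CASP1, which processes IL-1 beta and IL-18, differed by 0.091 (0.91), and STAT4, a transcription factor downstream of interleukin-12, by 1.26 (0.061).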

How the data were processed

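Total RNA of 14 uterus samples was labelled with biotin and hybridized to the Affymetrix porcine GeneChip, per the labels' protocols. The deposited values are log2 levels per probe set, made by the authors with RMA per the submitters' processing notes, which give no version or settings. RMA makes intensity distributions equal between arrays, and no detection calls were used. Precision is limited by the number of arrays.

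Of 24123 probe sets 124 controls were left out. Symbols came from the platform annotation, and all 76 genes were found unchanged in the gene table of Sscrofa11.1. High minus low was fitted with limma 3.58.1 in R 4.3.3 (lmFit, eBayes, two-sided, no covariate, all 14 arrays), adjusted by Benjamini-Hochberg over 23999 probe sets. The code was run on simulated normal values, drawn independently for each probe set and without differences in tissue mixture. That run checks the code and not the error rate in these data. The labels call the samples biological replicates. They state no pairing of arrays by replicate number, and no array batch was named.

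The genes, lists and rules were chosen with earlier results of these data known. All genes of the set could be named, and 26 were picked for description: called genes, the smallest p of each family and a fixed set of classical cytokines and receptors. Other genes given with values were described outside this rule, among them IL18BP, IL27RA, IL1R1, IL4R, IL11RA, IL21, CXCL2, CXCR4, TNFRSF1A and TNFRSF12A. Alternatives were a filter on dim probe sets, other scaling, weights, covariates, block, moderation, threshold, averaging of probe sets and leaving out each array.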

Additional observations from a re-analysis of the deposited data

Results flagged for a closer look

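Among 26 genes picked by the naming rule, each group of 5 or 9 arrays was screened for an array far from the others, and 3 of 52 groups had one, where chance gives about 1 in 20. CCL2 was at 7.20 in low 2, the highest of the low arrays, with the next at 6.20. CXCL9 was at 4.73 in high 4, the highest of the high arrays, with the next at 3.76. TNFAIP6 was at 1.90 in high 5, the lowest of the high arrays, with the next at 2.10.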

How the results depend on the processing

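Cyclic loess, subtraction of array medians, trend and robust moderation and averaging of probe sets kept the 5 called genes called, and the last 2 of these added S100A12. When 1 array was left out, the count of called genes lay between 3 and 10, that over all probe sets between 944 (without high 3; 1002 without high 2) and 2650, and the median difference between 0.094 and 0.18. Of the named differences, IL15 then lay between -0.026 and 0.15, IL1A between -0.019 and 0.23 and TLR2 between -0.084 and 0.32. Without low 7 and low 9, left out after seeing the data, 3 of the genes and 1065 probe sets were called, and IL15 was -0.071. At an adjusted p of 0.10 the counts were 8 and 2925. Array weights called 11 genes and 3060 probe sets, with TLR2 at -0.12, and the trophoblast mean as a covariate called 9 genes, with TLR2 at -0.020. Among the 12000 brightest probe sets, which held 22 of the genes, the median difference was 0.38. Of the 76 genes, 10 lay above the 75th percentile in the mean and 10 above the array median on all 14 arrays.

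With the epithelium mean as a covariate 0 genes and 2 probe sets were called, and IL15 was -0.39, IL1A -0.22, IL1B -0.13, IL6 -0.069 and TLR4 -0.92. With the smooth muscle and epithelium means 0 genes and 0 probe sets were called in limma (1 and 317 at an unadjusted p under 0.05), and the median difference was -0.084. The sign turned for CCL2 (0.17), CCL24 (0.020), CCL5 (-0.21), CCR2 (-0.13), CXCL9 (-0.15), CXCR6 (-0.26), IL15 (-0.39), IL18 (0.31), IL1A (-0.42), IL1B (-0.21), IL34 (-0.18), S100A12 (-0.30), TLR4 (-0.33), TLR6 (-0.16), TNF (-0.10) and TNFRSF1B (-0.095).

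With the replicate number as a block 0 genes (9 at an unadjusted p under 0.05) and 35 probe sets were called in limma. In that fit IL6 was 0.052, IL15 -0.047, IL1A -0.11, IL1B -0.061, TLR2 -0.012 and TLR4 -0.18. These block differences rest on the 5 high arrays and the low arrays of the same number. The low arrays without a same-numbered high array add nothing to them, so this fit had less power than the fit without a block. Same-numbered arrays had correlations of their deviations from the group means between -0.25 and 0.42. High 4 correlated best with low 4, and each other high array with a low array of another number. The labels state no pairing, and these correlations cannot decide whether the numbers pair the sows. The causes of these changes were not tested.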
